A study of Mus musculus with 4 samples.

Results

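The Smad genes encode the transcription factors that carry signals of the TGF-beta family from receptors at the cell surface to chromatin. The 7 genes described here are Smad1, Smad2, Smad3, Smad4, Smad5, Smad6 and Smad9, and the peaks counted for each are those whose summit lay inside the gene or within 20 kb of it in the RefSeq annotation of GRCm38. By this rule 71 peaks belonged to the 7 genes, out of 86919 in the 3 peak lists together: 2 from the Trim33 list of 4426, 37 from the CTCF list of 52446 and 32 from the H3K27ac list of 30047. The 7 genes were taken by name, out of 21887 protein-coding genes of the annotation.

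Receptors of the BMP branch phosphorylate Smad1, Smad5 and Smad9, and receptors for activin, Nodal and TGF-beta phosphorylate Smad2 and Smad3. The phosphorylated proteins bind Smad4, the mediator common to both branches, and the complex enters the nucleus. Smad6 is an inhibitory Smad that restrains mainly the BMP branch and is itself a transcriptional target of that branch. Trim33, also called TIF1-gamma, is a chromatin-binding protein known to bind phosphorylated Smad2 and Smad3 and to act on Smad4. In the early mouse embryo both branches pattern the primitive streak, mesoderm and endoderm.

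The data are from embryoid bodies, aggregates of differentiating mouse embryonic stem cells, collected on day 6. Chromatin was immunoprecipitated with antibodies against Trim33, the insulator protein CTCF and acetylated lysine 27 of histone H3 (H3K27ac, a mark of active promoters and enhancers), and a library of input DNA served as the control. All 4 libraries came from stem cells of an outbred B6 and 129Sv background whose Trim33 alleles are floxed (Trim33FF) and which carry the ubiquitously driven, tamoxifen-inducible Cre UbcCreERT2; the labels give no treatment, and cells without Trim33 were not analysed here. Each antibody had 1 library, made from embryoid bodies of 20 dishes, so no value has a replicate check and no difference was tested. In the authors' column headings, Trim33 and the input share a code that differs from that of CTCF and H3K27ac. What the codes mean is not given. The CTCF and H3K27ac peaks were thus called against an input with the other code, and Trim33 differs from them by code as well as antibody. The authors' deposited table counts 13643929 tags in the Trim33 library, the shallowest, against 25729171 to 33090822 in the other 3, and puts 0.72% of the Trim33 reads, 26.46% of the CTCF reads and 13.02% of the H3K27ac reads inside peaks. Embryoid bodies hold several cell types, and a peak in a small fraction of cells cannot be told apart from a weak peak in all of them. Of 25 marker genes of germ layers, blood, heart and pluripotency, 10 had H3K27ac at an end (a summit no more than 1 kb away), a share near the 39.2% of all protein-coding genes. The 10 were Eomes, Tbx6, Foxa2, Sox17, Gata4, Gata6, Sox1, Pou5f1, Sox2 and Nanog. Other markers of the same layers had none there: T, Mixl1 and Mesp1 of mesendoderm and mesoderm, Afp and Ttr of endoderm, Pax6 and Nes of neural cells, and Zfp42 of pluripotent cells. None was found either at the heart and blood or vessel markers Hand1, Nkx2-5, Tbx5, Kdr, Tal1, Gata1 and Pecam1.

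The promoter sequences of the Smad genes are shown here because the comparisons that follow turn on whether the gene start was acetylated or lay under a CTCF peak. They are RefSeq sequences of build GRCm38.p6, 250 bases before to 50 after an annotated start, written 5′ to 3′ along the gene; those of Smad2 and Smad4 are not shown. Capitals mark letters that Smad proteins are known to bind, found on either strand. These are the palindrome GTCTAGAC, the shorter string CAGAC, the GC-rich string GGCGCC, and the similar GGCTCC.
Smad1, chr8:79399379-79399678, minus strand: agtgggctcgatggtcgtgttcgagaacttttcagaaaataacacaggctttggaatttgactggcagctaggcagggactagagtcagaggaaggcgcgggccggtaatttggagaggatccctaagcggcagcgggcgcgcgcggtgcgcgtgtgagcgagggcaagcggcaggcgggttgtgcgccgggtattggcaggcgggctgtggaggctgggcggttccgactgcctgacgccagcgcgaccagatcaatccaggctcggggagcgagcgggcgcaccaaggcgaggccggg
Smad5, first start, chr13:56702760-56703059, plus strand: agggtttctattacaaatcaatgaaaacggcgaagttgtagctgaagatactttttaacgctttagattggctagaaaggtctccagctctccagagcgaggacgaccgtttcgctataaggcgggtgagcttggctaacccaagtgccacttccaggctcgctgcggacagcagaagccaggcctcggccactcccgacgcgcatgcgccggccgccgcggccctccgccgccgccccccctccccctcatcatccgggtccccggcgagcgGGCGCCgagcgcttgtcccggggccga
Smad5, last start, chr13:56703418-56703717, plus strand: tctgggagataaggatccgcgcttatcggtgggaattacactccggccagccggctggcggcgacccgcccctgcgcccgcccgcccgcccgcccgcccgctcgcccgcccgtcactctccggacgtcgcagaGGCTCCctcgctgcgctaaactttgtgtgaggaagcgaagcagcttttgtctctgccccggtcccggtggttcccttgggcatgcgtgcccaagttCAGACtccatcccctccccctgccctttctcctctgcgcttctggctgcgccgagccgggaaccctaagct
Smad9, chr3:54755332-54755631, plus strand: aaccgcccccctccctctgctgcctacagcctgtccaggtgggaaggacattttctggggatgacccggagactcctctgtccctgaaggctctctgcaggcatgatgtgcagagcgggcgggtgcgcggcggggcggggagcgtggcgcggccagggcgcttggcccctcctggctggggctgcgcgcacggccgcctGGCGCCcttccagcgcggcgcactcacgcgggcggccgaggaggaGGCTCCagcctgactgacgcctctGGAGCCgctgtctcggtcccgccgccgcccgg
Smad3, chr9:63757945-63758244, minus strand: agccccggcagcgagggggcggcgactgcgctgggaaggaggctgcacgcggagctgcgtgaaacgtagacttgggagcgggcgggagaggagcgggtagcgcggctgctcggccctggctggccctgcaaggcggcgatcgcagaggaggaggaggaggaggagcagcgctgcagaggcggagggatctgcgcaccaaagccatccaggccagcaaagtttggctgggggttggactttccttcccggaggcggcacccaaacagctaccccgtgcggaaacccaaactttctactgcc
Smad6, chr9:64022010-64022309, minus strand: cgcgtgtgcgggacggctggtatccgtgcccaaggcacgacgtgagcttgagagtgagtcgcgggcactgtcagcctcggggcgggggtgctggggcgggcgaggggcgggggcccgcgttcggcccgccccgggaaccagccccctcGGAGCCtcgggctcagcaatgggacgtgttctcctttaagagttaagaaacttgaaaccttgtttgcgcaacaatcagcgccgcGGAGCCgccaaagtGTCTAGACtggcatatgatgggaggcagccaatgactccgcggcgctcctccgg

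All 6 of these promoters were rich in CpG. Those of Smad1, Smad9 and Smad6 and both shown for Smad5 each held 31 CpG, more than 89.4% of the 32851 promoters in the RefSeq table, and that of Smad3 held 25, more than 81.6%. The median promoter held 7. The GC content ran from 63% at the first Smad5 start to 73.7% at Smad9. The palindrome GTCTAGAC occurred in the Smad6 promoter alone among these, and in 0.213% of all promoters. GGCTCC was present in 30.8% of all promoters and occurred 2 times each in those of Smad6 and Smad9 and 1 time in the last Smad5 promoter. GGCGCC, in 11.9% of all promoters, occurred 1 time in that of Smad9 and 1 time in the first Smad5 promoter. CAGAC, in 49.6% of all, occurred only in the last Smad5 promoter among the 6, and the Smad1 and Smad3 sequences held none of the 4 strings. At least 1 of the 4 stood in 68.9% of all promoters, so having a match or lacking one does not by itself set a promoter apart. All of these are matches of letters, not measured binding sites. No Trim33 peak overlapped any of the 6 promoters, as against 2.76% of all promoters. The letters CCCTC, part of the CTCF motif, stood in all 6 promoters and in 66% of the table, and AGGGGGC in those of Smad3 and Smad6 and in 10.6% of the table.

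H3K27ac was found at 6 of the 7 Smad genes, CTCF at 6 and Trim33 at 2. Among all protein-coding genes, 59.2% had an H3K27ac summit inside or within 20 kb, 75.3% a CTCF summit and 21% a Trim33 summit, so each of these counts has to be read against a common event. The Smad genes are 39.4 to 111 kb long, while the median protein-coding gene is 17.2 kb. Among the 3984 protein-coding genes in the same length range, the shares were 69.4%, 86.9% and 22.8%. Smad4 and Smad5 had all 3 kinds of peak, a pattern shared by 17.2% of protein-coding genes. Smad1, Smad3 and Smad6 had CTCF and H3K27ac without Trim33, as did 36.8%. Smad9 had CTCF alone, as did 18.7%, and Smad2 had H3K27ac alone, as did 4.39%.

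**Figure D1:**
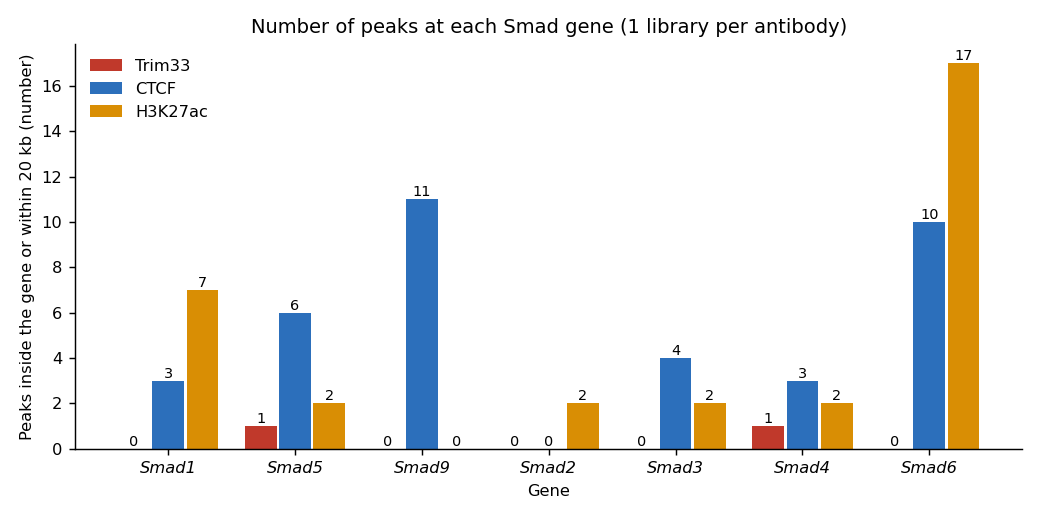
Number of peaks whose summit lay inside each Smad gene or within 20 kb, by antibody, from 1 library each. Smad6 had the most H3K27ac peaks (17), Smad9 had 11 CTCF peaks and no H3K27ac peak, and Smad2 had no CTCF peak.

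**Figure D2:**
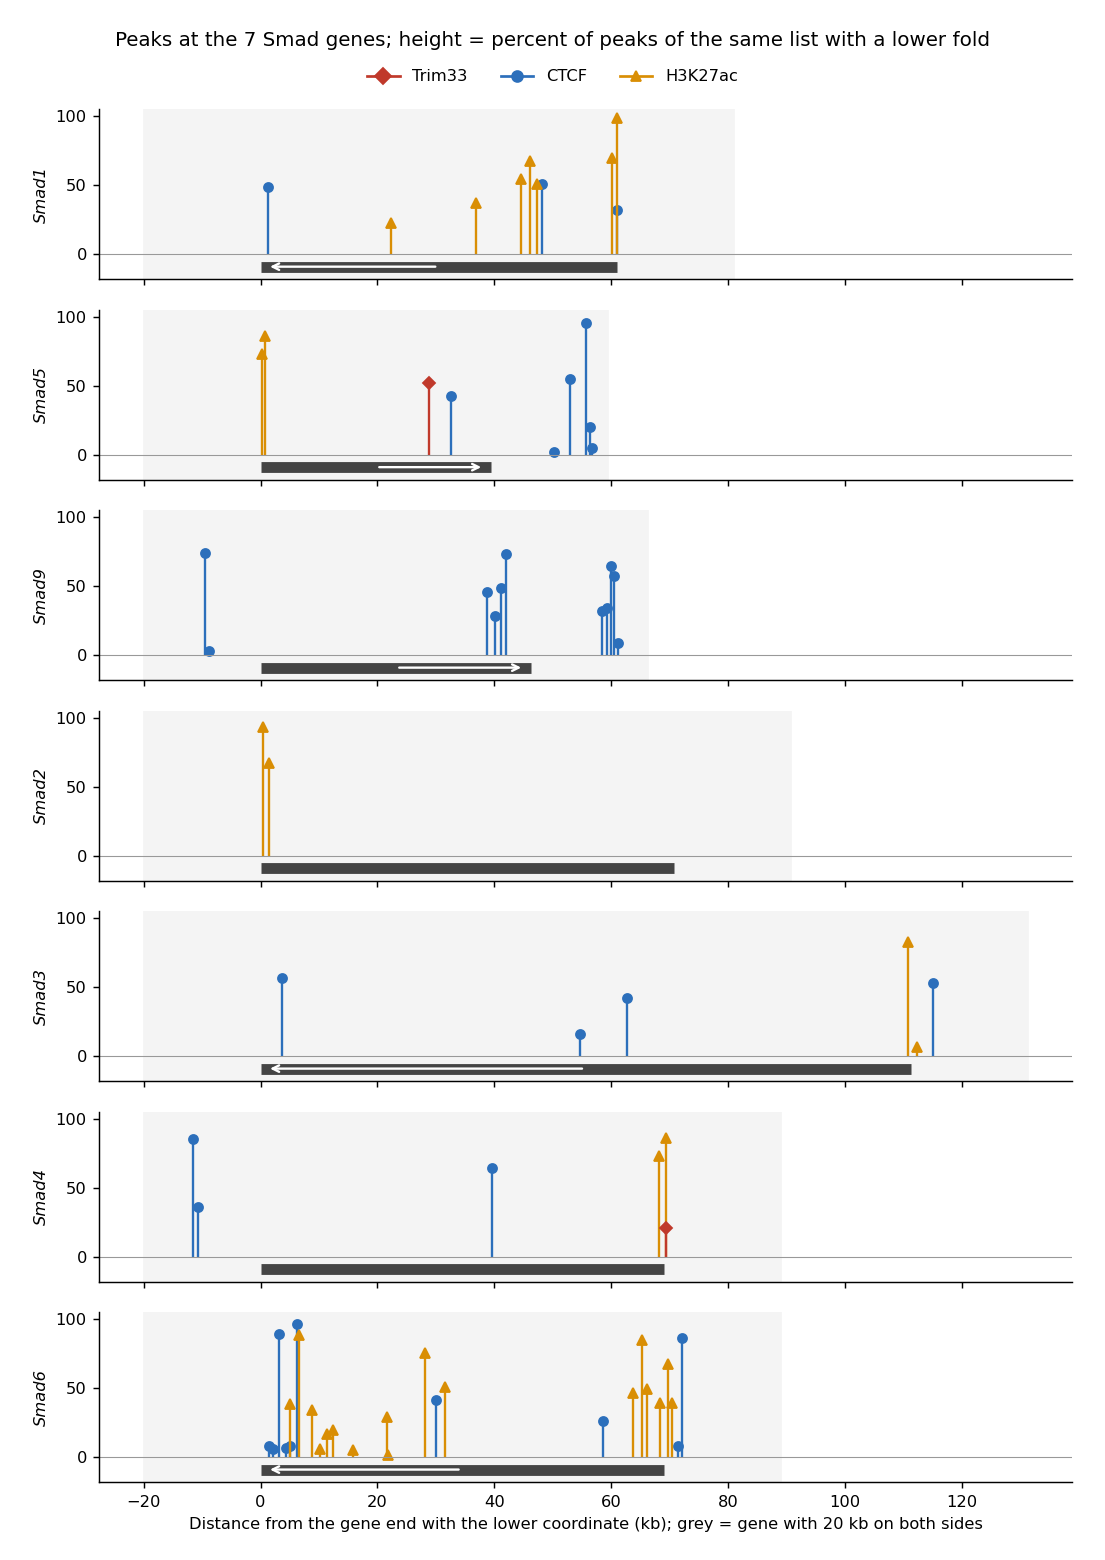
Positions of the peaks at the 7 genes, in kb from the gene end with the lower coordinate; the bar is the gene and the arrow its direction where the promoter table gives it. The height of a stem is the percent of peaks in the same list with a lower fold, so stems of different colours rank peaks within different lists. The tallest H3K27ac stems of Smad1, Smad5, Smad2, Smad3 and Smad4 stand at a gene end, and Trim33 appears at Smad5 and Smad4.

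Acetylation stood at the gene ends of 6 members. A summit was found no further than 1 kb from an end of Smad1, Smad5, Smad2, Smad3, Smad4 and Smad6, against 39.2% of protein-coding genes, and no such summit lay at Smad9. The 32 H3K27ac peaks had folds over background from 3.56 to 23.6 with a median of 6.81, close to the median of 6.74 over the whole list, and 17 of them exceeded that list median. Of these peaks, 28 had their summit inside the gene and 10 lay within 1 kb of an end. The same shares over all H3K27ac peaks were not counted, so neither number can be called a trait of these genes. The folds are the peak caller's values in the deposited lists and rank peaks within a list only.

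Among the genes of the BMP branch, Smad1 had the highest acetylated site of all 7 genes. Its promoter peak (chromosome 8, 79398713 to 79399615) had a fold of 23.6 (−log10 q 92.6), rank 513 of 30047, with the summit 93 bp inside the gene. A CTCF peak from 79399233 to 79399435 lay over the same place, with its summit 2 bp away and a fold of 7.11 (−log10 q 12.8), lower than most of its list since only 31.9% of CTCF peaks were lower. This was the only CTCF summit within 1 kb of an end of any of the 7 genes, where 26.2% of protein-coding genes have one. The last 57 bases of the Smad1 promoter shown above lie under that CTCF peak, and 237 of its 300 bases lie under the H3K27ac peak. Among all 32851 promoters of the table, 25.4% were overlapped by an H3K27ac peak and 11.8% by a CTCF peak.

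Smad1 also had acetylation inside the gene. Besides a second peak at the start with a fold of 8.73, there were 5 further H3K27ac peaks between 13.8 and 38.7 kb downstream of the start, with folds from 5.3 to 8.4. The 3 of them nearest to the start, with summits 13.8, 14.9 and 16.5 kb from it, lay beside a CTCF peak of fold 9.53 whose summit was 0.913 kb from the closest acetylated summit and overlapped none. The third CTCF peak of Smad1, of fold 9.25, lay 1.31 kb from the other end of the gene. In all, Smad1 had 7 H3K27ac peaks, a number reached by 8.66% of protein-coding genes. Its nearest Trim33 summit lay 43.1 kb away, with a fold of 5 and 246 bp from an end of Mmaa, a gene of vitamin B12 metabolism.

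Smad5 had a compact acetylated start and 1 Trim33 peak deep inside the gene. H3K27ac peaks on chromosome 13 had folds of 9.18 and 12.6, with summits 182 and 688 bp downstream of the first start. The lower of them covered all 300 bases of the first promoter, and the higher one had its summit within the last promoter and covered 202 of its bases. The Trim33 peak, from 56731686 to 56731958, had a fold of 5.74 (−log10 q 5.73) and ranked 2112 of 4426, near the middle of its list, whose median fold was 5.67. It lay 28.8 kb downstream of the first start and 10.6 kb from the far end, and overlapped neither CTCF nor H3K27ac. The nearest CTCF summit was 3.88 kb away, in a peak of fold 8.29, and the nearest acetylated summit 28.1 kb away, at the start.

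Downstream of Smad5 stood 5 CTCF peaks with summits 10.9 to 17.3 kb past its end and folds from 4.03 to 29. The highest, from 56757570 to 56759032, ranked 2282 of 52446 (−log10 q 132). All 5 lay closer to an end of Gm45623, a predicted protein-coding gene 7.67 kb from Smad5, than to an end of Smad5. None of them overlapped Trim33 or H3K27ac. How many of all CTCF peaks overlap neither was not counted, so this does not set the 5 apart.

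Smad9, the third receptor-regulated Smad of the BMP branch, differed from the other 6 in having no H3K27ac peak in its window. Its promoter is as rich in CpG as those of Smad1 and Smad6 and was overlapped by no peak of the 3 lists. The nearest acetylated summit had a fold of 27 and lay 20.2 kb from the gene, just past the 20 kb limit and 84 bp from an end of Exosc8, an RNA exosome subunit gene. It also lay within 1 kb of an end of Alg5, a gene 5.66 kb from Smad9. A CTCF peak of fold 50.5 stood there too, 20.1 kb from Smad9. These were the summits closest to the limit from outside, and the closest from inside was a CTCF peak of fold 4.57, 17.3 kb from Smad5. The peaks at these ends of Exosc8 and Alg5 touch the rule itself: 1 H3K27ac peak was counted for Smad9 when any overlap with the window sufficed. The nearest Trim33 summit was 311 kb away.

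CTCF peaks at Smad9 were numerous, 11 in all, a number reached by 4.5% of protein-coding genes. They formed 3 runs, with 2 peaks upstream, 4 inside the gene within 3.17 kb and 5 downstream within 2.78 kb. The highest had folds of 15.8 upstream, 15.7 inside and 13 downstream. The inner run had its summits 38.8 to 41.9 kb past the start, toward the far end of the gene. The upstream pair lay nearer to Alg5, a glycosylation enzyme gene, and the downstream run nearer to Rfxap, a regulator of MHC class II genes, so only the 4 inner peaks had Smad9 as the nearest coding gene. With peaks closer than 1 kb joined, the 11 became 3 regions, a number reached by 37.3% of genes.

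The activin, Nodal and TGF-beta branch genes Smad2 and Smad3 had acetylated ends and no Trim33 peak. Smad2, on chromosome 18 from 76241090 to 76311748, had H3K27ac peaks of fold 16.5 (−log10 q 54.6, rank 2026) and 8.27, with summits 0.382 and 1.45 kb inside the same end. No CTCF summit lay inside Smad2 or within 20 kb, which is so for 24.7% of protein-coding genes. The nearest one was 33.8 kb from the gene, with a fold of 4.87, and the nearest Trim33 summit was 80013 bp away, with a fold of 5.66.

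Smad3, on chromosome 9 from 63646766 to 63757994, is the longest of the 7 genes. An H3K27ac peak 2052 bp wide covered the whole promoter shown above, with a fold of 11.4 (−log10 q 54.6) and its summit 0.501 kb inside the gene. A weaker one of fold 4.3 lay 1.11 kb upstream. Of 4 CTCF peaks, with folds from 5.72 to 10.8, 3 lay inside the gene and 1 lay 3.8 kb upstream of the start, and none overlapped H3K27ac. No acetylated summit lay in the remaining length of the gene. The nearest Trim33 summit was 44.5 kb away, with a fold of 5.67. It lay 239 bp from an end of Iqch and also within 1 kb of an end of Aagab, a gene 2.18 kb from Smad3.

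Smad4, the common mediator, was the only one of the 7 with Trim33 at a gene end, which 6.66% of protein-coding genes have. The Trim33 peak on chromosome 18 from 73704091 to 73704310 had a fold of 4.82 (−log10 q 3.68) and ranked 3420 of 4426, so that 21% of the list was lower. Its summit lay 0.385 kb outside the annotated end of Smad4 and 38 bp from the summit of an H3K27ac peak of fold 12.5 (−log10 q 39.8). A second H3K27ac peak of fold 9.18 lay 0.895 kb inside the same end. CTCF did not overlap there: its 3 peaks had folds of 12.7, with the summit 29.4 kb inside the gene, and of 20.8 and 7.51, with summits 11.5 and 10.7 kb beyond the opposite end. The Trim33 summit also lay inside the neighbouring noncoding gene 4930578L24Rik, so the peak cannot be assigned to one of the 2 genes.

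Smad6, the inhibitory member, had the broadest acetylation. It had 17 H3K27ac peaks, 15 of them inside the gene, with folds from 3.56 to 13.4 and a summed width of 10357 bp, or 9.5% of its window. Most were weak for their list: their median fold was 6.13, below the list median of 6.74, and 5 of the 17 exceeded that median. At least 17 such peaks were found at 0.886% of protein-coding genes. Per length of window, 3.79% of genes had as many or more, and with peaks closer than 1 kb joined, its 8 regions were reached by 0.548%. By comparison, summed widths at the other acetylated members ran from 945 bp at Smad2 to 3572 bp at Smad1.

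The acetylated sites of Smad6 lay in a group around the start and others further in. The first group had 6 peaks, from 1.34 kb upstream to 5.31 kb downstream, with folds from 6.13 to 12. The highest of these had its summit 3.72 kb inside the gene rather than at the start. At the start itself, peaks of fold 8.35 and 6.13 flanked the promoter shown above and covered 85 of its 300 bases, and the palindrome and both GGCTCC matches lay in the part between those peaks. The other 11 peaks lay between 37.4 and 63.9 kb downstream, and the highest of them was also the widest, 3087 bp (chromosome 9, 63958468 to 63961554), and reached a fold of 13.4 (−log10 q 53.7).

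Strong CTCF sites stood near both ends of Smad6, though none within 1 kb of an end. Upstream, a CTCF peak from 64024715 to 64026903 had a fold of 21.3 and its summit 3.13 kb before the start. In the last 10 kb of the gene there were 6 CTCF peaks within 4.7 kb, of which the highest had folds of 30.1 (−log10 q 155, rank 1902 of 52446) and 23.2. The former, from 63958762 to 63959758, overlapped the widest H3K27ac peak, with 421 bp between the summits, and a smaller CTCF peak of fold 4.97 overlapped another of fold 6.05. With the site at the Smad1 promoter, these were the 3 of 37 CTCF peaks at the 7 genes that overlapped acetylation. The share of all CTCF peaks that overlap H3K27ac was not counted, so 3 of 37 cannot be called few or many. The nearest Trim33 summit was 65.5 kb from Smad6, with a fold of 4.75.

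**Figure D3:**
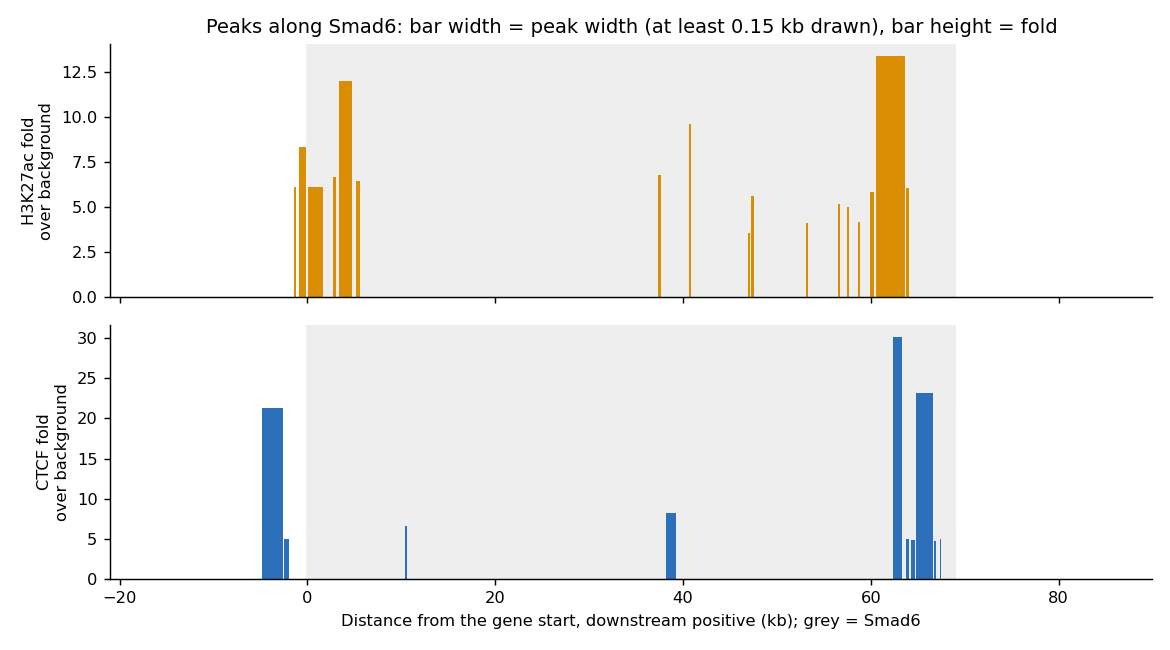
H3K27ac peaks (top) and CTCF peaks (bottom) along Smad6, with the distance from the gene start in kb on the horizontal axis and the fold over background on the vertical axes, which differ between panels. The acetylated sites form a group around the start and another toward the far end, where the CTCF peak of fold 30.1 stands at the H3K27ac peak of fold 13.4.

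Smad3 and Smad6 are neighbours on chromosome 9, with 195 kb and no other protein-coding gene between them. That stretch held 12 CTCF peaks with folds up to 32, 4 H3K27ac peaks up to 7.01 and 1 Trim33 peak of fold 3.6, which is beyond 20 kb from both genes. Within the 20 kb windows, Smad6 had 17 H3K27ac peaks and Smad3 had 2.

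Over the 7 genes, CTCF folds ran from 4.03 to 30.1 with a median of 8.25, against 9.46 for the whole list, and 14 of the 37 peaks exceeded that list median. By the highest CTCF fold the genes came in the order Smad6, Smad5, Smad4, Smad9, Smad3, Smad1 and Smad2, with 30.1, 29, 20.8, 15.8, 10.8, 9.53 and no peak. By the highest H3K27ac fold the order was Smad1 with 23.6, Smad2 with 16.5, Smad6 with 13.4, Smad5 with 12.6, Smad4 with 12.5, Smad3 with 11.4 and Smad9 with none. With 1 library per antibody, whether neighbours in either order differ was not tested. Of the 37 CTCF peaks, 12 had another protein-coding gene nearer. All Trim33 and H3K27ac peaks had their own Smad gene as the nearest protein-coding gene, with noncoding genes left aside. The same shares over the whole lists were not counted.

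**Figure D4:**
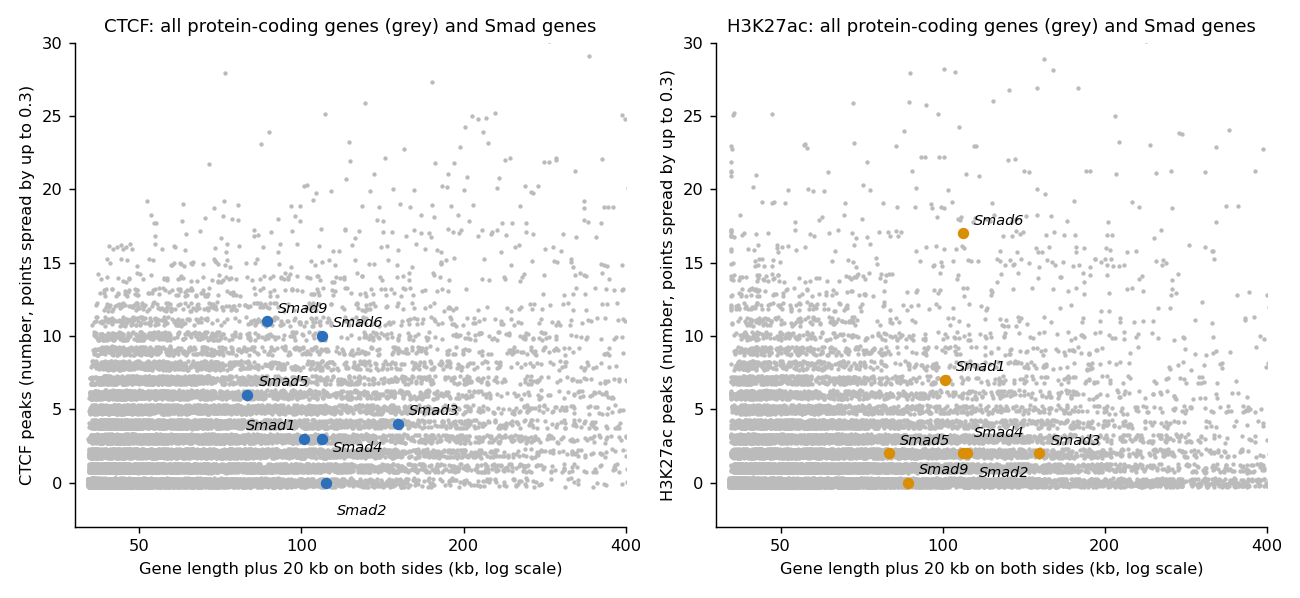
Number of CTCF peaks (left) and H3K27ac peaks (right) against the length of the gene plus 20 kb on both sides, for all protein-coding genes (grey points) and the 7 Smad genes (coloured). The axes end at 400 kb and 30 peaks, which leaves 443 genes out of at least 1 panel. Smad6 stands above most genes of its length for H3K27ac, and Smad9 and Smad6 lie in the upper part for CTCF. Per length of window, 8.79% of protein-coding genes had as many CTCF peaks as Smad9 or more, and 17% as many as Smad6. With peaks closer than 1 kb joined, 37.3% reached the number of Smad9 and 22.2% that of Smad6.

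The other genes of the pathway, 47 in 4 lists, carried the same kinds of peak. Trim33 had a summit inside or within 20 kb of 21 of the 47 genes, CTCF of 45 and H3K27ac of 40. The shares over all protein-coding genes, 21%, 75.3% and 59.2%, were lower than those of the 47 for each antibody. No test was run, gene length was not matched, and the pathway lists were chosen with earlier results of these data known. By role, Trim33 was at 5 of 12 receptor genes, 6 of 13 ligand genes, 6 of 13 genes for regulators of Smad proteins and 4 of 9 partner factor genes. The highest Trim33 folds among the receptors were 8 at Tgfbr3, a co-receptor, and 6.67 at Bmpr2, the BMP type II receptor. Among the ligands they were 8.22 at Tgfb3 and 7.37 at Bmp7. Among the regulators they were 6.83 each at Trim33 and at Smad7, the second inhibitory Smad, and among the partners 12.2 at Runx1 and 8 at Eomes, a factor that acts with Smad2 and Smad3 in mesendoderm. Smad7 had 14 H3K27ac peaks with a highest fold of 30.7, and 2 CTCF peaks. As many H3K27ac peaks or more were also found at Pmepa1, which encodes an inhibitor of TGF-beta signalling, with 38, at the corepressor genes Ski and Tgif1, with 16 each, and at the partner factor gene Gata4, with 15, so a high number was not limited to the inhibitory Smads. These genes were picked out after their values were seen.

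Each Smad gene was also matched to the pathway gene with the most similar peaks, by the percent of each list lying below the highest peak in the window, over the 3 libraries. The distance is in percentage points, and a list with no peak in the window was scored 0. Smad2 was closest to Ppm1a, a phosphatase gene, at a distance of 1.44, and the next gene, Smurf2, was at 42.4. Both Smad2 and Ppm1a had acetylation without CTCF or Trim33. Their CTCF and Trim33 values were thus 0 by the scoring, and only the H3K27ac values, 93.2 and 94.6, differed. Smad6 was closest to Tgfb1, at 4, with Zfyve9 next at 4.48. Smad9 was closest to Acvr1c, an activin and Nodal receptor gene without H3K27ac, at 5.41, with Bmp2 next at 6.41. Unlike Smad9, Bmp2 had an H3K27ac peak, of fold 4.17, with only 5.7% of the list lower. Smad3 was closest to Ski, a corepressor of Smad proteins, at 6.43, Smad1 to Runx2 at 8.08, Smad4 to Gata4 at 8.66 and Smad5 to Nodal at 9.45. Only 3 values enter each distance.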

How the data were processed

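Peak lists for Trim33, CTCF and H3K27ac, 1 library each, were used as deposited. Builds hg19 and mm10 and the tools SICER 1.1, BWA 0.7.12, MACS2 and MACS appear in the submitters' processing notes without roles; the peak names carry mm10, and the authors' deposited summary names MACS 2.1.0, calling against the input and removal of blacklisted peaks. Per peak, the deposited lists give the fold enrichment (a ratio over background), the −log10 p and −log10 q, and the summit. The Trim33 list was made from the fewest tags and had the lowest share of reads inside peaks, so weak sites may be missing from it.

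Gene positions came from RefSeq GRCm38.p6, the assembly of mm10, without exons, so exons and introns were not told apart; strand came from the RefSeq promoter table, which matched 5 of the 7 genes, and distances from a start were taken from the outer end of the gene. Peaks overlapped when they shared at least 1 bp. Counting was tested on simulated data. Python 3.11.15, numpy 2.4.6 and pandas 2.3.3 were used. All members were named, with each Trim33 peak and the highest CTCF and H3K27ac peaks. Pathway genes were named by Trim33 fold or as the closest or next match of a Smad gene. Smad7, Pmepa1, Ski, Tgif1 and Gata4 were named for their H3K27ac counts, chosen after their values were seen. Members and lists were chosen with earlier results of these data known. Alternatives were windows of 5 and 50 kb, the gene alone, any overlap, stricter lists, own nearest gene, other definitions of a shared site, other backgrounds and, chosen after seeing the data, peaks within 1 kb joined.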

Additional observations from a re-analysis of the deposited data

How the results depend on the processing

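No paired analysis was possible because each antibody had 1 library and no test was run. The counts of genes with CTCF and with H3K27ac stayed within 1.5 times of the values given, under each alternative. Trim33 was found at 4 genes (5 peaks) with a 50 kb window, where 3 of the peaks overlapped CTCF and 3 H3K27ac. The share of all Trim33 peaks with such overlaps was not counted. Trim33 was at 1 gene (1 peak) with the gene alone or with peaks above the list median. At a −log10 q of at least 10 it was at 0 genes (0 peaks). In those 3 settings 0 Trim33 peaks overlapped H3K27ac. CTCF peaks numbered 23 with a 5 kb window, 20 in the gene alone, 14 above the list median and 19 when joined within 1 kb. H3K27ac peaks numbered 17 above the list median and 17 when joined. The share of genes with Trim33, CTCF or H3K27ac was 15.4%, 60.7% and 41.8% over all RefSeq genes and 22.8%, 86.9% and 69.4% among protein-coding genes of the length of the Smad genes. Under settings chosen after seeing the data, Smad6 had 5 H3K27ac peaks above the list median and 8 joined regions, and Smad9 had 1 with a 50 kb window or with any overlap. The causes were not tested, beyond the fewer peaks or the other window that each setting leaves. Trim33 has the shallowest list and only 0.72% of its reads inside peaks. A missing peak there means none was detectable in this library.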
